A study of Mus musculus with 6 samples.

Results

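The genes described here encode the histone variant H3.3 and the proteins that carry it to chromatin: H3f3a and H3f3b (the histone itself), Daxx and Atrx, the HIRA complex genes Hira, Ubn1, Ubn2 and Cabin1, and the ASF1 genes Asf1a and Asf1b. They were chosen by name, and all 10 were found among the 24421 genes of the deposited table. All 10 also passed the filter on low values, which left 12435 genes for testing. The samples were 3 libraries of Pml knockout (Pml-/-) and 3 of wild-type embryonic stem cells, all from the mouse line E14 and all grown in serum medium with leukemia inhibitory factor, CHIR99021 and PD0325901, which inhibit GSK3 and MEK. Polyadenylated RNA was sequenced. The knockout is known only by its genotype label, no rescue line was among the samples, and the names of the 3 knockout columns share 1 prefix. The labels do not say that replicates came from separate cultures or clones. A p-value here therefore reflects library-to-library spread, part or all of which may be technical.

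H3.3 replaces the replication-coupled H3 proteins in nucleosomes independently of DNA replication, and its genes give polyadenylated mRNA throughout the cell cycle. The HIRA complex deposits it mainly at active genes, and DAXX with the remodeler ATRX deposits it at telomeres, pericentric heterochromatin and retroelements. ASF1 proteins bind H3-H4 dimers and hand them to HIRA or, for replication, to CAF-1. DAXX is a resident of PML nuclear bodies, the assemblies that the Pml protein builds, and H3.3 and its chaperones have been seen to pass through these bodies. The comparison addressed here is whether transcripts of this machinery stand at other levels in Pml knockout than in wild-type cells.

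H3f3a and H3f3b encode 1 protein from different mRNA sequences. Their start regions are shown because they let reads of each gene be told apart and show how H3.3 differs from the replication-coupled H3 of Hist1h3a. The coding sequences come from GENCODE M21 (mm10), read in the sense of the mRNA. All 3 genes lie on the minus strand, H3f3a on chromosome 1, H3f3b on chromosome 11 and Hist1h3a on chromosome 13. Bases 1 to 150 of the coding sequence, counted from the start codon, are given with capitals at each base that differs from H3f3a.
H3f3a: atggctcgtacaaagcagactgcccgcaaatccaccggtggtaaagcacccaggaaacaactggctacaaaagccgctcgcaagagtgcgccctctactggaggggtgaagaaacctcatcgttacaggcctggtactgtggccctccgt
H3f3b: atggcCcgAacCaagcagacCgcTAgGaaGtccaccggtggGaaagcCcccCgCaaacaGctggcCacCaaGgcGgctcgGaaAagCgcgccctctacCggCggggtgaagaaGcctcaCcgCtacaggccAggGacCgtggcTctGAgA
Hist1h3a: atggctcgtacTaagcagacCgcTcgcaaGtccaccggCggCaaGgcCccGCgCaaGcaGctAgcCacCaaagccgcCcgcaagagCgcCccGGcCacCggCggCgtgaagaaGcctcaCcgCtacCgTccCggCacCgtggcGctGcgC

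Over 408 coding bases H3f3b differed from H3f3a at 95 bases (76.7% identity), yet 0 of the 136 codons encoded another residue. The longest run of identical bases was 23. Hist1h3a differed from H3f3a at 94 bases, and 5 codons encoded another residue, codons 32, 88, 90, 91 and 97. Codon 32 lies in the stretch above, and the others lie in bases 247 to 300, and codons 88, 90 and 91 encode residues by which DAXX and UBN1 are known to tell H3.3 from replication-coupled H3. That stretch is given next, again with capitals at each base that differs from H3f3a.
H3f3a: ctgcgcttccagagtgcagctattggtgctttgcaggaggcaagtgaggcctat
H3f3b: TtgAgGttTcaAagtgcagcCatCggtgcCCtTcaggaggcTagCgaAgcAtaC
Hist1h3a: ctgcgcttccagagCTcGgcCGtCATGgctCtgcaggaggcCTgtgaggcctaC

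Pml was lower in every library labelled knockout. The gene (mm10, chromosome 9) had 77.3, 75.4 and 76.3 CPM, a gene's read count scaled by library total, in knockout cells, against 186, 194 and 193 CPM in wild-type cells (log2 fold change -1.31, SE 0.0412, limma adjusted p = 1.28e-20), so transcript remained in the knockout, at a fitted 0.402 times the wild-type level. Recovered library totals were 5845653 to 8693079 reads in the knockout and 9389186 to 11046725 in wild type. Of 8 embryonic stem cell markers, 1 was higher in the knockout and 7 did not pass the test, and their summed level was 7888 to 8114 CPM in knockout and 7705 to 7865 CPM in wild-type libraries. Fibroblast markers, which feeder cells would carry, summed to 295 to 324 CPM in knockout and 396 to 426 CPM in wild-type libraries, most of it Vim, a gene that stem cells also express. Of these 8 markers 3 were tested, 1 higher and 2 lower. Pdgfrb was higher (log2 fold change 0.39), and Thy1 (-0.95) and Vim (-0.46) were lower. Over the 6 libraries Pdgfrb had 13.6 to 24.6 CPM and Thy1 3.69 to 9.2 CPM. Col3a1, Lum and Dcn were at or near 0 in all libraries. Col1a1 and Col1a2 were low but had reads in every library, at 0.46 to 1.36 CPM and 0.58 to 0.81 CPM. Neural precursor markers summed to 87.9 to 97.04 CPM in knockout and 134 to 146 CPM in wild-type libraries, with all 3 tested genes lower. Of 2 tested mesoderm markers 1 was higher, Eomes, and the list summed to 36.1 to 40.7 CPM in knockout and 32.3 to 35.8 CPM in wild-type libraries. Of 2 tested trophoblast markers 1 was lower, Cdx2 (20.4 to 23.9 CPM in knockout, 23.9 to 27.6 CPM in wild type, summed over the list), and neither of 2 tested primitive endoderm markers passed (4.48 to 5.98 CPM in knockout, 2.88 to 5.16 CPM in wild type). In bulk RNA, fewer cells of a type and less RNA per cell cannot be told apart.

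Of the 10 genes, Atrx was higher in the knockout and 9 did not pass the test. Calls came from limma on log2(CPM + 1), with p-values adjusted over all 12435 genes by Benjamini-Hochberg and a threshold of 0.05. Over all genes tested 14.0% were called in either direction and 6.54% were called higher, so 1 call among 10 genes is near the background. The median log2 fold change of the 10 genes was 0.02, against 0.00463 over all genes. Their median absolute log2 fold change was 0.0656, against 0.0952 over all genes. These medians are not matched for level, since the genes tested include low ones with larger counting error. The authors' deposited table, from their own edgeR test, gave none of the 10 genes an FDR under 0.05, where it called 12.3% of the same 12435 genes. Without an adjustment 3 of the 10 genes had a limma p under 0.05, which were Atrx, Cabin1 and Asf1b. So did 3407 of all 12435 genes tested, a share near that of the 10 genes.

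**Figure D1:**
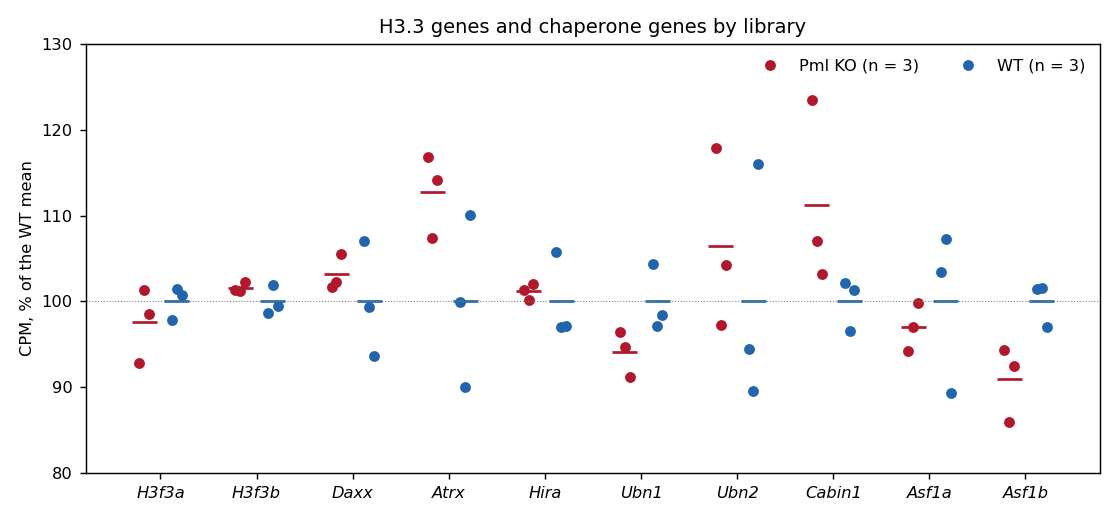
Level of each gene in each library as a percent of its wild-type mean (linear axis that starts at 80%), with points for libraries and bars for group means, n = 3 per group. Knockout points lie apart from wild-type points for Ubn1, Cabin1 and Asf1b, while those of Atrx overlap in 1 library of each group.

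The H3.3 genes themselves stood at nearly the same level in both groups. H3f3a (chromosome 1, 180802552 to 180813818 in mm10) had 510, 557 and 542 CPM in the knockout libraries (replicates 1, 2 and 3), against 538, 557 and 554 CPM in the wild-type libraries. Knockout replicate 1 was the lowest of the 6, and the groups overlapped. H3f3b (chromosome 11, 116021961 to 116024504) had 675, 675 and 681 CPM in knockout cells, against 657, 679 and 663 CPM in wild-type cells. These groups overlapped too, and the SD was 3.86 CPM in the knockout and 11.2 CPM in wild type. The log2 fold change of H3f3a was -0.04 (95% interval -0.10 to 0.03, limma adjusted p = 0.484), and that of H3f3b was 0.02 (95% interval -0.03 to 0.08, limma adjusted p = 0.632).

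Summed over both genes, H3.3 transcripts came to 1213 ± 24.8 CPM in knockout and 1216 ± 20.4 CPM in wild-type cells (SD, n = 3 each), or 99.8% of the wild-type level. H3f3b had 1.32, 1.21 and 1.26 times the CPM of H3f3a in the knockout libraries and 1.22, 1.22 and 1.20 times in the wild-type libraries. The mean log2 ratio was 0.34 ± 0.0639 in the knockout and 0.28 ± 0.0156 in wild type, and the difference of 0.06 did not exceed the spread between libraries (two-sided exact permutation test, p = 0.3, adjusted p = 0.5 over 5 gene ratios, where 3 against 3 libraries cannot go under 0.1). GENCODE M21 lists 2 pseudogenes named for these 10 genes, and neither has a row in the deposited table. It also lists antisense transcripts that share 638 (Gm17275) and 160 bases (H3f3aos) of the 3504 exon bases of H3f3a. The sources used here do not say how reads with several matches or on the opposite strand were counted, so such reads cannot be told apart from those of H3f3a.

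DAXX binds H3.3 with H4, and ATRX, its partner, is a remodeler of the SWI/SNF-like helicases. Daxx (chromosome 17, 33909445 to 33915590) had 98.0, 98.5 and 102 CPM in knockout cells, against 103, 95.8 and 90.2 CPM in wild-type cells. The knockout values fell inside the wild-type range, and the log2 fold change was 0.05 (95% interval -0.05 to 0.15, limma adjusted p = 0.594). The SD of Daxx was 2.01 CPM in the knockout and 6.47 CPM in wild type.

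Atrx (chromosome X, 105797453 to 105929372) had 227, 208 and 221 CPM in knockout cells, against 194, 175 and 214 CPM in wild-type cells. It averaged 219 ± 9.42 CPM in the knockout and 194 ± 19.4 CPM in wild type (SD, n = 3 each), a 1.13-fold higher level. The log2 fold change was 0.18 (SE 0.0482, 95% interval 0.08 to 0.27, limma adjusted p = 0.0126), and 73.2% of all tested genes had a smaller absolute change. The groups overlapped, since knockout replicate 2 lay below wild-type replicate 3. Wild-type replicate 2 was the lowest library, and without it the log2 fold change was 0.10 (limma adjusted p = 0.171). Without knockout replicate 3 the limma adjusted p was 0.0661, with no filter on low values it was 0.0724, and DESeq2 on recovered reads gave 0.295. In the authors' deposited table Atrx has a log2 fold change of 0.16 and an FDR of 0.122.

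**Figure D2:**
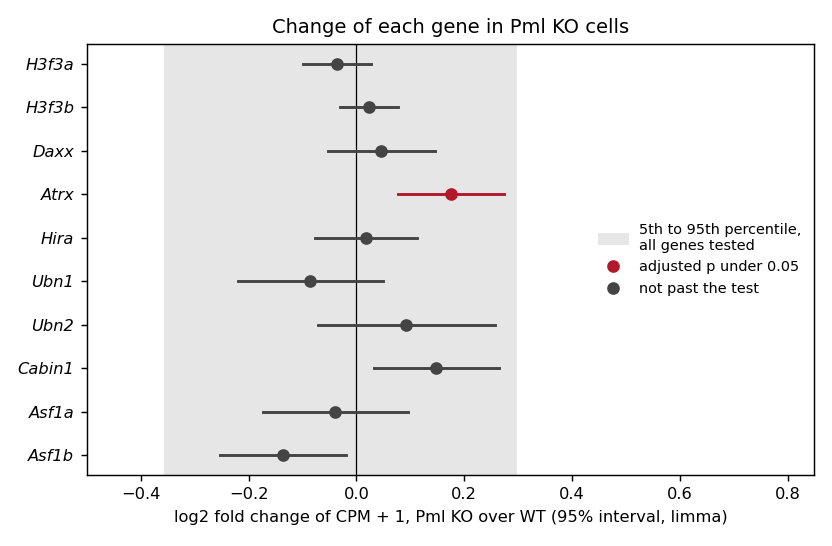
Log2 fold change of CPM + 1, Pml knockout over wild type, with 95% intervals from limma, for each gene (n = 3 libraries per group). The red point, Atrx, is the one gene past the adjusted p of 0.05, and all 10 points lie inside the grey band that holds the 5th to 95th percentile of all tested genes (-0.36 to 0.30).

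Atrx varied among libraries by more than counting alone would give: its SD of 19.4 CPM in wild type stands against a counting error of 2.25% of the mean of 194 CPM. Ubn2 also varied, with an SD of 5.55 CPM around 39.4 CPM in wild type, against a counting error of 4.99%. Spread above counting error was not limited to these genes: it was 4.45% of the mean for H3f3a in the knockout (1.59% from counting) and 9.69% for Cabin1 in the knockout (4.08% from counting). In wild type it was 9.47% for Asf1a (4.52% from counting) and 6.71% for Daxx (3.18% from counting). The excess was not general, since the other group of these last 3 genes lay below counting error. The spread was 3.02% for Cabin1 in wild type (3.65% from counting). In the knockout it was 2.90% for Asf1a (5.42% from counting) and 2.02% for Daxx (3.69% from counting). Ubn1 and Asf1b lay below counting error in both groups, and H3f3b and Hira did so in the knockout. Atrx and Ubn2 have the longest transcripts of the 10, 10.275 kb and 14.644 kb in GENCODE M21. Transcript length moved with the libraries over all genes: the 293 tested genes whose longest transcript exceeds 10 kb had a median log2 fold change of 0.08, and 16.4% of them were called higher and 4.44% lower. The 492 genes of at most 1 kb had a median of -0.03, with 2.24% called higher and 7.32% lower. In each library the median deviation of the genes over 10 kb from their mean over the 6 libraries was 0.05, 0.03 and 0.03 in the knockout and -0.04, -0.06 and 0.0055 in wild type. Atrx deviated by 0.14, 0.02 and 0.11 in the knockout and by -0.08, -0.23 and 0.05 in wild type. The class median is taken over 293 genes, so its size cannot be set against that of 1 gene. With each library's trend on length removed, an alternative chosen after seeing the data, the log2 fold change of Atrx was 0.12 and still passed (limma adjusted p = 0.044).

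**Figure D3:**
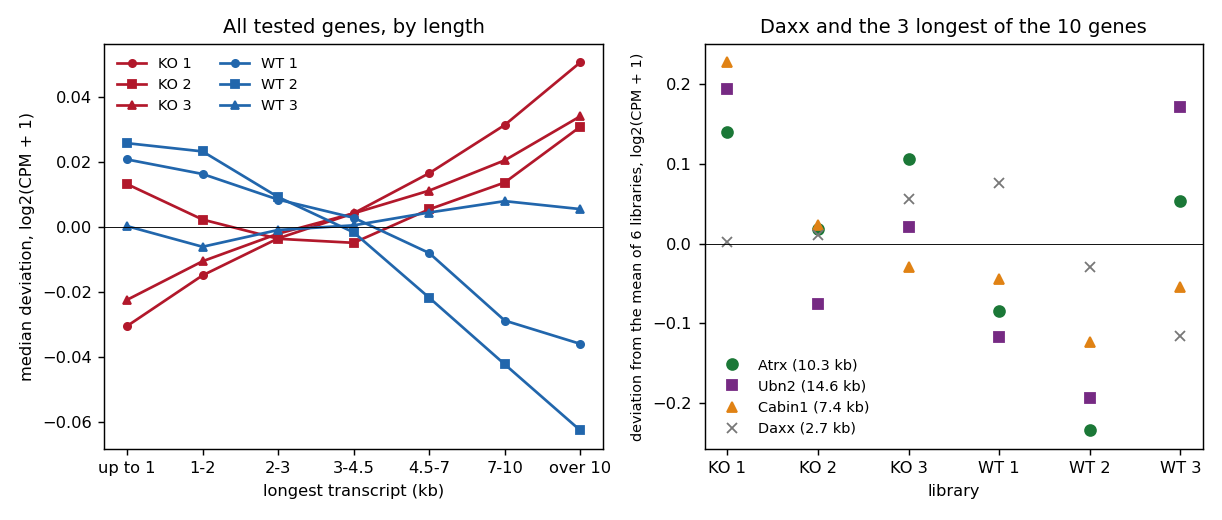
Left, median deviation of log2(CPM + 1) from the mean of the 6 libraries for tested genes in 7 classes of longest transcript length in kb, 1 line per library. Right, the same deviation for single genes in each library. Genes over 10 kb lie highest in the knockout libraries and lowest in wild-type replicate 2, and Atrx and Ubn2 are also lowest there.

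The tested genes nearest to Atrx did not share a direction. Of the 2 nearest tested genes on each side, Pbdc1 fell (65.8 CPM in knockout and 74.2 CPM in wild-type cells, log2 fold change -0.17, limma adjusted p = 0.047), with overlapping groups. Magee1 on that side, and Magt1 and Cox7b on the other, did not pass, with log2 fold changes of -0.07, 0.03 and 0.02. Pbdc1 and Magee1 do not adjoin Atrx: they end at 105117090 and 105123927 in GENCODE, where Atrx starts at 105797615. Magee1 was low, at 2.35 CPM in knockout and 2.55 CPM in wild-type cells. On chromosome X as a whole 45 of 417 tested genes were called higher and 47 lower. Over all 12435 genes tested 813 were called higher and 932 lower, so both shares were larger on chromosome X. With each gene's log2(CPM + 1) values centred on their mean over the 6 libraries, the tested genes whose profiles lay nearest to that of Atrx were Ccdc88c, Smg1 and Gadd45a, at Euclidean distances of 0.046, 0.0561 and 0.0724. Their likeness to Atrx follows from how they were picked. Smg1 was called higher (limma adjusted p = 0.00392), and Ccdc88c and Gadd45a did not pass (limma adjusted p = 0.0659 and 0.511). Ccdc88c and Smg1 also have long transcripts (7542 and 15557 bases), and Gadd45a has 1223.

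The ratio of Daxx to Atrx was 0.432, 0.473 and 0.459 in the knockout and 0.531, 0.548 and 0.422 in wild type. Wild-type replicate 3 was the lowest of the 6, and the difference in log2 ratio of -0.13 did not exceed the spread between libraries (two-sided exact permutation test, p = 0.4, adjusted p = 0.5). Leaving out wild-type replicate 3 gave -0.25, leaving out replicate 2 of wild type gave -0.06 and leaving out replicate 1 of wild type gave -0.08.

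The HIRA complex joins the histone chaperone HIRA with the ubinuclein proteins UBN1 and UBN2, which recognise H3.3, and with CABIN1, a scaffold subunit. Hira (chromosome 16, 18877037 to 18970309 in GENCODE) had 97.3, 96.1 and 98.0 CPM in knockout cells, against 102, 93.2 and 93.3 CPM in wild-type cells. The knockout values lay between the lowest and highest wild-type values, and the log2 fold change was 0.02 (95% interval -0.08 to 0.11, limma adjusted p = 0.851). Hira thus stood close to Daxx in CPM, and the ratio of Hira to Daxx was 0.964 to 0.993 in the knockout and 0.973 to 1.03 in wild type (two-sided exact permutation test of the log2 ratio, p = 0.5, adjusted p = 0.5). Another annotated gene on the same strand, Gm28539, covers 44.7% of the exon bases of Hira and has no row among the genes analysed, so reads there cannot be told apart. In the deposited table Hira shares its locus with Mrpl40, a mitochondrial ribosomal protein gene, which had 70.8, 70.3 and 79.1 CPM in the knockout and 73.8, 71.1 and 70.7 CPM in wild type.

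Ubn1 (chromosome 16, 5050060 to 5086285) had 38.0, 37.3 and 35.9 CPM in knockout cells, against 41.1, 38.3 and 38.8 CPM in wild-type cells. All knockout values lay below all wild-type values, but the log2 fold change of -0.09 (95% interval -0.22 to 0.05) did not pass (limma adjusted p = 0.432). Ubn2 (chromosome 6, 38433854 to 38512763) had 46.4, 38.3 and 41.1 CPM in knockout cells, against 37.2, 35.3 and 45.7 CPM in wild-type cells. Its groups overlapped widely, and its log2 fold change was 0.09 (95% interval -0.07 to 0.26, limma adjusted p = 0.496). With the length trend removed it was 0.02. Ubn2 reads came to 1.22, 1.03 and 1.14 times those of Ubn1 in the knockout, as a ratio of CPM, and to 0.905, 0.922 and 1.18 times in wild type. The difference in log2 ratio was 0.18, with 1 wild-type library inside the knockout range (two-sided exact permutation test, p = 0.3, adjusted p = 0.5). Leaving out wild-type replicate 3 gave 0.31, and leaving out replicate 1 of wild type gave 0.11.

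Cabin1 (chromosome 10, 75646110 to 75764357) had 90.6, 78.5 and 75.7 CPM in knockout cells, against 74.9, 70.8 and 74.3 CPM in wild-type cells. The groups did not overlap, though knockout replicates 2 and 3 stood close to wild type and replicate 1 stood well above. The log2 fold change was 0.15 (95% interval 0.03 to 0.26, limma adjusted p = 0.0802), and it was 0.07 without knockout replicate 1. The limma adjusted p was 0.0445 without knockout replicate 2 and 0.0384 without knockout replicate 3. Its longest transcript has 7417 bases, and with the length trend removed its log2 fold change was 0.11 (limma adjusted p = 0.174).

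ASF1A acts with HIRA, and ASF1B is known as the form tied to proliferating cells. The encoded proteins had 202 (Asf1b) and 204 (Asf1a) residues, 72.3% of them identical in an alignment of 202 positions. Asf1b (chromosome 8, 83955015 to 83970195) had 54.5, 49.6 and 53.4 CPM in knockout cells, against 58.6, 58.6 and 56.0 CPM in wild-type cells. The groups did not overlap, with the knockout below, and the log2 fold change was -0.14 (95% interval -0.25 to -0.02, limma adjusted p = 0.115). The 640 tested genes of chromosome 8 had a median log2 fold change of -0.05, with 90 called lower and 17 higher. Over all 12435 genes tested 932 were called lower and 813 higher. Asf1b is the only one of the 10 genes on chromosome 8. Whether the lower values on that chromosome have a part in the value of Asf1b was not tested.

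Asf1a (chromosome 10, 53596757 to 53609225 in GENCODE) had 44.8, 46.2 and 47.5 CPM in knockout cells, against 49.2, 51.0 and 42.5 CPM in wild-type cells. Wild-type replicate 3 was the lowest library and the other wild-type libraries the highest, so the knockout lay inside the wild-type range. Its log2 fold change was -0.04 (95% interval -0.17 to 0.10, limma adjusted p = 0.76). Exons of Mcm9, a helicase gene on the opposite strand, cover 48.05% of the exon bases of Asf1a, and both genes have 1 shared locus in the deposited table, so their reads are uncertain. Mcm9 had 16.6, 14.4 and 15.8 CPM in the knockout and 15.9, 16.1 and 17.8 CPM in wild type, with a log2 fold change of -0.09 that did not pass (limma adjusted p = 0.623). The ratio of Asf1b to Asf1a was 1.07 to 1.21 in the knockout and 1.15 to 1.32 in wild type (difference in log2 ratio -0.10, two-sided exact permutation test, p = 0.3, adjusted p = 0.5).

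Knockout and wild-type values lay fully apart for 3 of the 10 genes, Ubn1, Cabin1 and Asf1b, and for 30.2% of all tested genes. The share among the 10 genes is near that of all genes.

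Per length, the H3.3 genes stood far above their chaperones. In CPM per kb of annotated exon, H3f3b had 227 ± 1.3 in knockout and 224 ± 3.75 in wild-type cells, and H3f3a had 153 ± 6.82 in knockout and 157 ± 2.93 in wild-type cells (SD, n = 3 each). Daxx followed with 31.5 ± 0.637 in the knockout and 30.6 ± 2.05 in wild type, then Asf1b with 22.4 in knockout and 24.7 in wild type. Hira had 15.6 in knockout and 15.4 in wild type, and Asf1a 12.7 in knockout and 13.1 in wild type. Below them came Atrx (10.1 in knockout, 8.92 in wild type), Cabin1 (6.72 in knockout, 6.04 in wild type), Ubn1 (4.48 in knockout, 4.76 in wild type) and Ubn2 (1.96 in knockout, 1.84 in wild type). The order was the same in both groups, and no gene's range over the 3 libraries overlapped that of its neighbour in either group. It depends on the length taken for Atrx, whose annotated exons sum to 21757 bases and whose longest transcript has 10275. Per kb of longest transcript, Atrx stood at 21.3 in knockout and 18.9 in wild-type cells and Asf1a at 21.0 in knockout and 21.6 in wild-type cells, so that these neighbours changed places in the knockout.

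**Figure D4:**
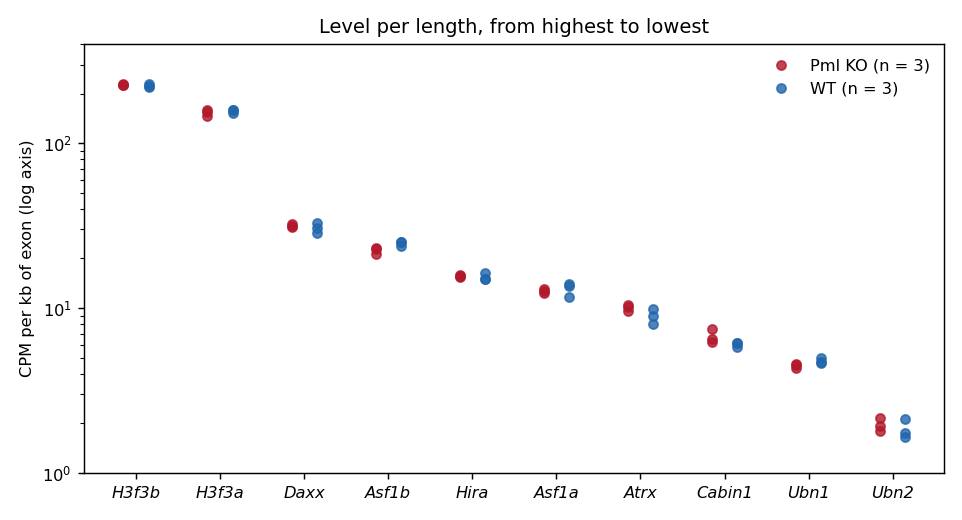
CPM per kb of annotated exon on a log axis, 1 point per library, genes ordered by their mean over all 6 libraries. H3f3b at 227 (knockout) and 224 (wild type) and H3f3a at 153 (knockout) and 157 (wild type) CPM per kb stand above all 8 chaperone genes, which run from Daxx down to Ubn2.

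Other genes that handle H3-H4 or read H3.3 mostly did not pass the test. Of 21 tested H3-H4 chaperones and ASF1 partners 1 rose, 0 fell and 20 did not pass, 4.76% called against 14.0% of all genes, with a median log2 fold change of 0.01. Without knockout replicate 1 the calls were 1 higher and 1 lower. The gene that rose was Supt6, the histone chaperone of elongating RNA polymerase II, with 227, 229 and 234 CPM in the knockout and 203, 204 and 203 CPM in wild type (log2 fold change 0.17, SE 0.0341, limma adjusted p = 0.000623). The CAF-1 genes Chaf1a and Chaf1b, which serve replication, had 153 and 90.3 CPM in knockout cells, against 147 and 97.1 CPM in wild-type cells. Neither passed, with log2 fold changes of 0.06 and -0.11. All 5 genes of the centromeric H3 pathway tested, Cenpa and its loading factors, did not pass. Cenpa, the centromeric H3 itself, had 127 ± 4.32 CPM in the knockout and 135 ± 2.27 CPM in wild type (SD, n = 3 each; log2 fold change -0.08, limma adjusted p = 0.195).

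Of 17 remodelers, readers and modifiers tied to H3.3, 1 rose, 1 fell and 15 did not pass (11.8% called against 14.0% of all genes, median log2 fold change 0.02). The calls were 3 higher and 1 lower without knockout replicate 2, and also with the replicate number as a block. Chd2, a remodeler known to promote H3.3 incorporation, had 102, 91.9 and 94.7 CPM in the knockout and 79.6, 78.9 and 85.6 CPM in wild type, with no overlap (log2 fold change 0.24, SE 0.0502, limma adjusted p = 0.00131). Cbx3, which encodes the heterochromatin protein HP1 gamma, had 249, 243 and 241 CPM in the knockout and 315, 312 and 311 CPM in wild type (log2 fold change -0.35, SE 0.032, limma adjusted p = 1.71e-09). Trim28 and Setdb1, which act on retroelements where DAXX and ATRX also act, did not pass, with log2 fold changes of 0.06 and 0.07. Among 10 genes of H2A.Z exchange 1 rose, Ep400 (132 ± 5.07 CPM in knockout and 120 ± 5.66 CPM in wild-type cells, log2 fold change 0.13, limma adjusted p = 0.0467), and 9 did not pass, against 14.0% of all genes called and 6.54% called higher. The groups of Ep400 overlapped, and its call was lost in 10 of 16 alternatives. With the length trend removed its log2 fold change was 0.08 (limma adjusted p = 0.235), and the list then had 0 genes higher and 1 lower, Srcap, the catalytic subunit of another H2A.Z exchange complex. With the replicate number as a block 1 was higher and 1 lower. No gene of that list was called without knockout replicate 1 or 2, or without wild-type replicate 1 or 2.

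Histone variants other than H3.3 held genes that fell and 1 that rose. Of 8 tested variant and linker histone genes with polyadenylated mRNA, 1 rose, 4 fell and 3 did not pass, 62.5% called against 14.0% of all genes, with a median log2 fold change of -0.07. The list was chosen with earlier results of these data known and was not matched for level, so the 2 percentages are not an independent comparison. H2afy2, which encodes macroH2A2, a variant of repressed chromatin, had 49.6, 47.4 and 47.9 CPM in the knockout and 63.5, 65.6 and 65.5 CPM in wild type (log2 fold change -0.42, SE 0.0548, limma adjusted p = 1.95e-06). The linker histone gene H1f0 had 69.3 ± 4.17 CPM in knockout and 85.2 ± 1.74 CPM in wild-type cells (log2 fold change -0.30, limma adjusted p = 0.000141). H2afx, whose product marks DNA breaks when phosphorylated, had 610, 648 and 617 CPM in the knockout and 543, 561 and 540 CPM in wild type (log2 fold change 0.19, limma adjusted p = 2.44e-05). The calls of H2afy2, H1f0 and H2afx stood in all 16 alternatives.

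H1fx, another linker histone gene, and H2afy, which encodes macroH2A1 and was named after its values were seen, fell by less. H1fx stood at 28.6 CPM in knockout and 34.0 CPM in wild-type cells (log2 fold change -0.24, limma adjusted p = 0.0393), and H2afy at 165 CPM in knockout and 181 CPM in wild-type cells (log2 fold change -0.13, limma adjusted p = 0.0189). Their calls stood in 9 and 11 of 16 alternatives, and 3 genes of the list were called without knockout replicate 3, without wild-type replicate 1 or without wild-type replicate 3. The H2A.Z genes H2afz and H2afv did not pass, with 1024 and 99.2 CPM in the knockout and 998 and 92.8 CPM in wild type.

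**Figure D5:**
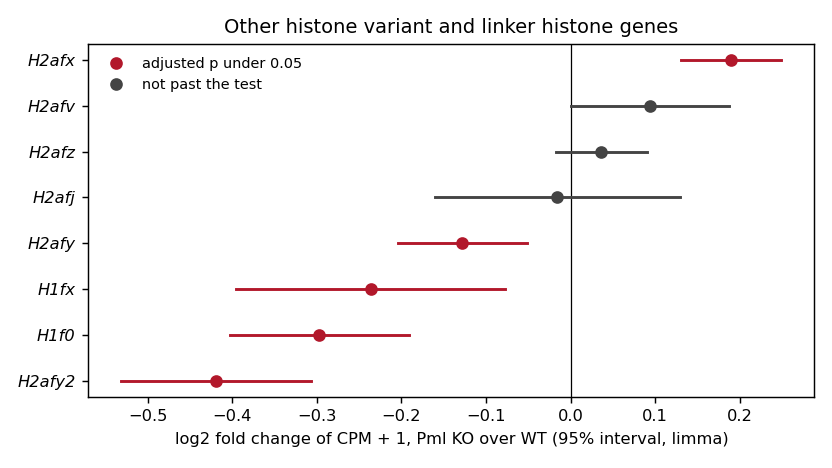
Log2 fold change of CPM + 1, Pml knockout over wild type, with 95% intervals from limma, for the 8 tested histone variant and linker histone genes other than H3.3 (n = 3 libraries per group). H2afy2, H1f0, H1fx and H2afy lie below 0 and H2afx lies above 0, at 0.19.

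The replication-dependent H3 genes, whose mRNA ends in a stem-loop in place of a poly(A) tail, were near the floor of these libraries. Of 12 listed genes 1 was tested, Hist1h3g, at 1.16 ± 0.225 CPM in knockout and 1.18 ± 0.179 CPM in wild-type cells, and the highest value of any of the 12 in any library was 1.38 CPM. A read count of 3 equals 0.345 to 0.513 CPM in the knockout and 0.272 to 0.32 CPM in the wild-type libraries, so differences between H3.3 and replication-dependent H3 transcripts cannot be drawn from these data.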

How the data were processed

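Polyadenylated RNA of 3 Pml knockout and 3 wild-type E14 libraries was analysed, and the 10 genes and the gene lists were chosen with earlier results of these data known. The authors trimmed reads with cutadapt, aligned them to mm10 with TopHat and tested counts with edgeR, per the labels and the design text of the series. Tool versions, the read counter, its annotation and its use of strand are not stated in the labels. The deposited CPM columns were tied to samples by genotype and replicate number in their names. Per the file headers, the deposited table also holds the authors' edgeR results for each gene: log2 fold change (knockout over wild type), p-value and FDR. Of 25833 rows, 1097 without values and 315 repeats were left out, none of the latter for the 10 genes. Of the CPM values, 100% came out as whole reads within 0.01 of a read, so reads were recovered.

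Genes were kept by edgeR's filterByExpr, and the values log2(CPM + 1) of the 6 libraries were tested with limma 3.58.1 (trended variance, group as the only term). Log2 fold changes are on that scale, which understates changes of low genes. Because the unit is CPM, edgeR 4.0.16 and DESeq2 1.42.0 on recovered reads were alternatives. Library pairs within groups had a chi-square per degree of freedom of 1.33 to 1.64, above sampling noise, and all 6 libraries were counted. Loci are 1-based mm10. Lengths, available for 96.2% of tested genes, and coding sequences come from GENCODE M21. Named genes were the 10 genes, Pml, up to 4 called genes of each list (or the 2 most abundant), the neighbours of called genes and their 3 nearest profiles. Of the genes so chosen, 1 is not reported here. Other genes were named after their values were seen. The fit was checked on simulated data, where it called 10% of 50 genes changed 1.1-fold and 66% of 50 genes changed 1.25-fold. Not passing the test therefore does not show that a gene was unchanged. The simulation gave every gene the same coefficient of variation beyond counting (0.0243) and drew changed genes over a wide range of levels. Its percentages do not give how often a particular gene would be called. Floors of 3 reads and shares cover counting error only.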

Additional observations from a re-analysis of the deposited data

How the results depend on the processing

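The count of genes called was 1745, and it was 1820 with edgeR on recovered reads, 796 with DESeq2 and 1160 to 1852 when 1 library was left out (1160 without wild-type replicate 2). The count among the 10 genes was 1, but 0 with DESeq2 and 0 when low genes were not filtered out, and 0 to 2 when 1 library was left out. With the replicate number as a block 2 of the 10 genes were called, Atrx and Cabin1 (log2 fold change of Cabin1 0.15, limma adjusted p = 0.0194), and 2337 genes in all. The numbers were not taken to pair libraries, since same-numbered libraries deviated together only weakly (correlations 0.0136 to 0.0755). Each library correlated best with that of its own number, a hint from the data and not from the design. The block with the length trend removed called Atrx alone. Atrx kept its direction in all 16 alternatives and passed in 12. Its log2 fold change was 0.17 with DESeq2 and 0.18 without the filter, where it did not pass, and 0.10 to 0.25 when 1 library was left out; the cause was not tested.

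Directions turned in genes near 0. Leaving out 1 library gave Hira -0.0029 to 0.0587 (-0.0029 and -0.0019 without wild-type replicates 2 and 3) and Asf1a -0.12 to 0.0127. Hist1h3g ranged from -0.0853 to 0.066 when 1 library was left out (0.066 without knockout replicate 3 and 0.051 without wild-type replicate 3), and was 0.0158 with the length trend removed. With no filter, Hist1h3a was called higher, at 0.791, 0.513 and 0.575 CPM in the knockout and 0.181, 0.291 and 0.213 CPM in wild type, close to the level of 3 reads. The other 8 of the 10 genes kept their sign, but Daxx was 4.42e-05 with wild-type replicate 3 left out (up to 0.10 with replicate 1 of wild type left out) and H3f3a -0.00093 without knockout replicate 1, both near 0. Ubn2 ranged from 0.0189 to 0.20 when 1 library was left out. Differences in log2 ratio then ranged from 0.0259 to 0.0896 for H3f3b over H3f3a, from -0.15 to -0.0408 for Asf1b over Asf1a and from -0.0462 to -0.0020 for Hira over Daxx. None of H3f3a, H3f3b, Daxx, Hira, Ubn1, Ubn2, Asf1a and Asf1b passed in any alternative. The order of levels per length had all 10 genes at the same rank with the longest transcript as length, over all libraries. Depth limits the low genes: counting error per library was 5.67% for Ubn2 in the knockout and 4.99% in wild type.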
